A study of Homo sapiens with 4 samples.

Results

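Contractile and actin-binding genes of smooth muscle were followed in BICR10 cells, an established line from a head and neck cancer, after knockdown of YEATS2, which encodes a reader of histone acylation. The 10 genes (ACTA2, ACTG2, TAGLN, MYL9, CNN1, TPM1, TPM2, CALD1, MYLK and SRF) were chosen by function, as contractile genes of mesenchymal cells driven by SRF, and were matched to the count files by gene symbol. The choice was made with earlier results of these data known, so the counts of members called and their median are descriptive. The comparison asks how their mRNA levels differ once YEATS2 is depleted. All 10 had a single row among the 60623 genes of the files, and 9 of them had enough counts for a test. Each condition had 2 mRNA libraries, shControl with a control hairpin and shYEATS2 with a hairpin against YEATS2, both delivered by lentivirus and followed by puromycin selection. BICR10 is 1 cell line, and neither the labels nor the study's methods say which of its YEATS2 hairpins a library carried. The methods describe replicates as biological for the experiments in general, and neither they nor the labels say how the 2 libraries of a group were derived. The p-values therefore measure the spread between these libraries, part of which may be technical.

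In smooth muscle and in activated fibroblasts, actin filaments built partly from the smooth muscle actins ACTA2 and ACTG2 slide along myosin. Tropomyosins lie along the filament, and caldesmon, calponin and transgelin bind it and limit or stabilise it. Contraction is switched on when the kinase encoded by MYLK, activated by calcium and calmodulin, phosphorylates the myosin regulatory light chain, one form of which is encoded by MYL9. Transcription of these genes depends on SRF, which binds a DNA element called the CArG box together with the cofactors MRTFA and MRTFB, which follow the state of the actin cytoskeleton, or in muscle with myocardin (MYOCD). Single genes of this group are also switched on in cells undergoing epithelial-to-mesenchymal transition.

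The counts on genes totalled between 11334133 and 24072396 in the shYEATS2 libraries and between 39824898 and 47297970 in the shControl libraries, so both shYEATS2 libraries were also the shallower ones. YEATS2 itself was at 66.1 and 66.7 CPM (counts divided by the TMM-scaled library total in megareads) in shControl and at 29.3 and 29.1 CPM in shYEATS2, a log2 fold change of -1.19 ± 0.08 (SE). Throughout, a gene was called when the adjusted p of edgeR's quasi-likelihood test was under 0.05 over the 17058 tested genes, and every log2 fold change is shYEATS2 over shControl. The labelled cell type was checked against marker genes. Of the squamous epithelial markers in shControl, the keratins KRT8, KRT18, KRT6A and KRT5 were at 266, 110.5, 56.6 and 15.7 CPM, and the adhesion genes ITGB4 and DSP at 16.2 and 5.73 CPM. DSG3, KRT14 and EPCAM were at 1.87, 1.21 and 1.01 CPM. CDH1, which encodes E-cadherin, KRT17 and TP63, the basal epithelial regulator, were near 0, at 0.335, 0.331 and 0.0331 CPM. Of the fibroblast markers in shControl, the collagen genes COL1A1, COL1A2 and COL3A1 were at 2796, 2616 and 1035 CPM. LUM, FBN1, DCN and POSTN were at 455, 455, 321 and 247 CPM. PDPN, PDGFRB and FAP were at 19.3, 17.7 and 13.3 CPM, PDGFRA at 2.73 CPM and THY1 at 0.183 CPM. Leukocyte markers summed to at most 0.424 CPM in any library.

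Every called member was lower in shYEATS2 except the transcription factor SRF, which was higher. Of the 10 genes, 6 were lower in shYEATS2 (ACTG2, TAGLN, CALD1, MYL9, TPM1 and MYLK), 1 was higher (SRF), 2 were not called (ACTA2 and TPM2) and 1 was too low to be tested (CNN1). Among all tested genes 23.6% were called lower, 22.6% higher and 46.2% in either direction. With every library thinned to 11334133 counts, 6 members were again called lower and 1 higher. ACTG2 entered the test only through its shControl counts. Without it, 5 of the remaining tested members were lower and 1 was higher. The median log2 fold change was -0.44 over the 9 tested members, or -0.38 over those with at least 10 counts in every library, beside -0.01 over all tested genes. The 6 genes called lower were separated completely, with each shYEATS2 value under each shControl value, and SRF was separated the other way, and such separation was seen downward for 36.3% and upward for 35.3% of all tested genes. The summed level of the 10 members was 1069 and 1065 CPM in shControl and 747 and 752 CPM in shYEATS2.

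**Figure D1:**
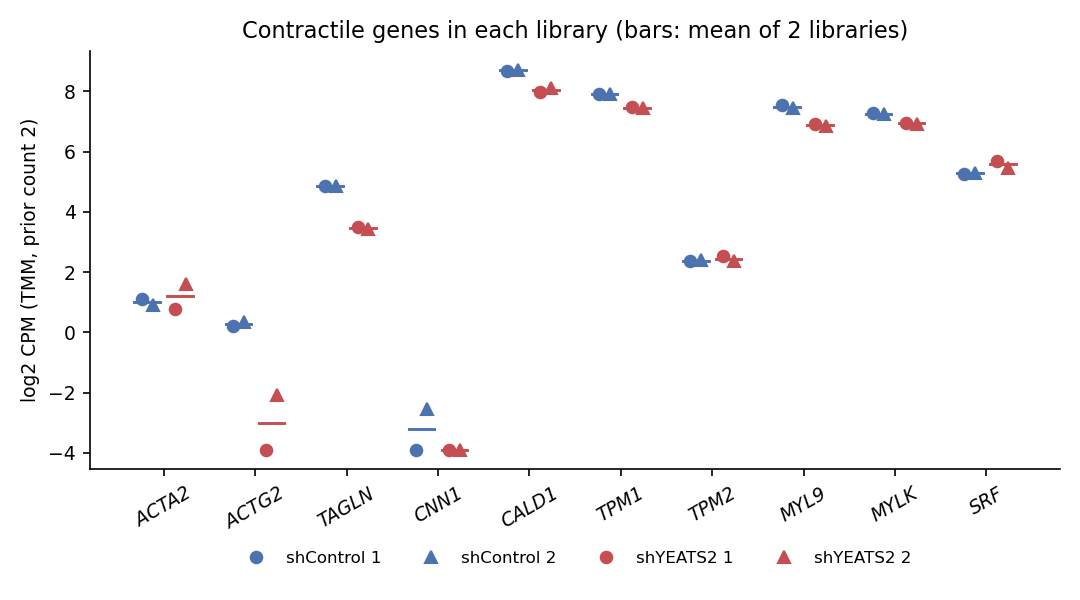
Level of each contractile gene in each library, as log2 CPM with a prior count of 2 on the vertical axis. Circles are replicate 1, triangles replicate 2, and the bars mark the mean of 2 libraries. TAGLN, CALD1, TPM1, MYL9, MYLK and ACTG2 sit lower in both shYEATS2 libraries, SRF sits higher, and the groups overlap or tie for ACTA2, TPM2 and CNN1.

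Markers of other cell types moved between the conditions too. For comparison, 23.6% of all tested genes were called lower and 22.6% higher. Of 12 fibroblast markers 11 were tested, 10 were lower and 0 were higher, and their summed level was 8015 and 7942 CPM in shControl against 2803 and 2651 CPM in shYEATS2. Of 12 squamous epithelial markers 10 were tested, 7 were lower and 1, CDH1, was higher, and the summed level was 477 and 474 CPM against 228 and 211 CPM. The list of smooth muscle and pericyte markers summed to 212 and 225 CPM in shControl and to 338 and 288 CPM in shYEATS2. Most of these sums was NOTCH3 alone, at 200.2 and 214 CPM in shControl and 319.5 and 268 CPM in shYEATS2. In this list 3 of 5 tested genes were higher and 0 lower. Its defining genes for smooth muscle were at or near 0, with MYH11, the smooth muscle myosin heavy chain, at 0.456 CPM in shControl against 0.590 CPM after knockdown, and DES, LMOD1, PLN and MYOCD each at no more than 10 counts in any library. Endothelial markers summed to 44.3 and 45.6 CPM in shControl and to 23.3 and 25.1 CPM in shYEATS2, mostly from KDR, while VWF and CDH5 were too low to be tested. The part of these markers in the fall of the contractile genes was not tested. In bulk RNA, fewer cells of a type and less RNA per cell cannot be told apart.

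SRF (ENSG00000112658, plus strand of GRCh38 chromosome 6, 43171269 to 43181506) encodes the transcription factor that binds the CArG box. Its level was 38.3 and 39.5 CPM in shControl and 51.2 and 44.4 CPM in shYEATS2, so both shYEATS2 libraries were higher and differed from each other by more than the shControl libraries did. The log2 fold change was 0.31 ± 0.08 (SE, adjusted p = 7.2e-04 by edgeR's quasi-likelihood test), or 124% of the control level. It rested on shYEATS2 replicate 1, since without that library the log2 fold change was 0.18 and the adjusted p was 0.0765 by edgeR. Scaling by library totals alone gave 0.45. Among 9365 genes averaging 10 CPM or more, those whose centred log2 profiles over the 4 libraries lay closest to that of SRF by Euclidean distance were ASB6 (0.00722), EPB41L1 (0.0121) and TSC22D1 (0.0217).

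The CArG box, which is CC, then 6 bases that are A or T, then GG, reads the same on both strands as a pattern. It was searched in promoter windows from RefSeq (GRCh38.p14, from 250 bases before to 50 bases after a gene's start), which were found for 8 of the 10 members. TAGLN and MYL9 had no entry. An exact box was present in the windows of 3 of these 8 genes (SRF, ACTG2 and MYLK), and in 438 of 27305 genes with a window, or 1.60%. With 1 base of the middle part allowed to be C or G, ACTA2 and CALD1 matched as well, making 5 of 8, beside 9.88% of all genes. The CALD1 match was in a window at 134711249 to 134711548, before the gene as annotated here, which begins at 134744252. The other windows of CALD1 held no match. CNN1, TPM1 and TPM2 held no match in these windows. The members were chosen as genes driven by SRF, so their share of exact boxes is no separate support. Among the genes with a window in the lists described below, exact boxes were in 6 of 15 cytoskeletal targets (40%). They were in 5 of 13 paralogs (38.5%) and 2 of 6 immediate-early targets (33.3%). The shares were 3 of 10 for smooth muscle identity (30%), 1 of 21 for the myosin motor and its control (4.76%), and 0 of 5 for the SRF cofactors. The cytoskeletal and immediate-early lists were chosen as SRF targets too, so their shares are no separate support either. The paralogs share genes such as ACTB with the cytoskeletal list. Of the members with an exact box, SRF was called higher, and ACTG2 and MYLK were called lower. The MYLK window lies at a start inside the gene, far from its 5′ end at 123884332. Counts of MYLK cover the whole gene, so its fall cannot be assigned to this start. The sequences of 4 of these genes are shown, chosen by their boxes and not by their change. They are the 3 with an exact box and ACTA2, whose window held 2 looser matches and which was not called. Each is the 250 bases before an annotated start, read along the strand of the gene, 5′ to 3′, with the CArG boxes in capitals. In ACTA2 each box holds 1 C or G in the middle part. The ACTA2 window shown also lies at a start inside the gene, and the window at its 5′ end, near 88991339, held no match. The SRF sequence is chr6:43171019-43171268 (plus strand), and that of ACTG2 is chr2:73892758-73893007 (plus strand). That of MYLK is chr3:123620549-123620798 (minus strand, at a start inside the gene). That of ACTA2 is chr10:88952774-88953023 (minus strand, at a start inside the gene).
SRF: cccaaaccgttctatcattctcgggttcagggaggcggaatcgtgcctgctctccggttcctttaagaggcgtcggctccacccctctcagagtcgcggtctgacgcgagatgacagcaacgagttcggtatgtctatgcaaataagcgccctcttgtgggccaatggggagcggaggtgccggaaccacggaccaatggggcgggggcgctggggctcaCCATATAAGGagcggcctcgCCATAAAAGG
ACTG2: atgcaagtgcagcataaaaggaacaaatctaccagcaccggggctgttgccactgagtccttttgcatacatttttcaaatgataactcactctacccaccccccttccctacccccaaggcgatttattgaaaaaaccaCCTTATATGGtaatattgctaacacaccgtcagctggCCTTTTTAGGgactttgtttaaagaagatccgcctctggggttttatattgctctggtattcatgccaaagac
MYLK: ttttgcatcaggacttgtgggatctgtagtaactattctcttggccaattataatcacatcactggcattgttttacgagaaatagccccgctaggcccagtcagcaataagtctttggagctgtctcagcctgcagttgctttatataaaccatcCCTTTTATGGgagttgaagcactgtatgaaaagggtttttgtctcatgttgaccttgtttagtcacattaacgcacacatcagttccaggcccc
ACTA2: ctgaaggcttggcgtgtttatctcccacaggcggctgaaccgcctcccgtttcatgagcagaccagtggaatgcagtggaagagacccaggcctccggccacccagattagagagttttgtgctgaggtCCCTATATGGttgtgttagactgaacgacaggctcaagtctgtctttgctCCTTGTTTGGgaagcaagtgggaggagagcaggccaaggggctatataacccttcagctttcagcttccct

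In SRF the boxes CCATATAAGG and CCATAAAAGG began 30 and 10 bases before the start, the latter ending at the last base before it. In ACTG2, CCTTATATGG began 110 bases and CCTTTTTAGG 73 bases before the start. MYLK had a single box, CCTTTTATGG, 94 bases before this start. In ACTA2 the matches with 1 exception, CCCTATATGG and CCTTGTTTGG, began 121 and 71 bases before its start inside the gene. A match describes the letters in a window. Binding of SRF was not measured in these libraries.

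The smooth muscle actins were both minor transcripts in these cells. ACTG2 (ENSG00000163017, chromosome 2, 73892314 to 73919865, plus strand), which encodes the enteric form of smooth muscle actin, was counted 50 and 45 times in shControl and 0 and 2 times in shYEATS2. The levels were 1.10 and 1.19 CPM against 0 and 0.170 CPM, and a count of 3 would correspond to 0.118 and 0.255 CPM in the shYEATS2 libraries. Over the summed counts, 95 against 2, the level in shYEATS2 was 4.72% of that in shControl, with an exact 95% interval of 0.563% to 17.5% that covers counting error only. The fitted log2 fold change was -4.29 ± 0.73 (SE, adjusted p = 1.0e-06), and with so few counts it depends on the prior count of the fit. Fits with 1 library left out gave -8.38 to -2.74. Where these left a single shYEATS2 library, with 0 or 2 counts, that library was assumed to vary like the shControl pair, and since the gene passed the filter only through shControl, its call is no separate support.

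ACTA2 (ENSG00000107796, chromosome 10, 88935074 to 88991339, minus strand), which encodes α-smooth muscle actin, the usual marker of myofibroblasts, was at 2.07 and 1.83 CPM in shControl and at 1.66 and 2.97 CPM in shYEATS2. The shYEATS2 libraries lay on either side of the shControl libraries. The log2 fold change was 0.14 ± 0.27 (SE) with a 95% interval from -0.40 to 0.69 (adjusted p = 0.706), and its sign turned to -0.24 without shYEATS2 replicate 2. Of its exon bases, 36.0% are also covered by genes on the other strand, ACTA2-AS1 and FAS. The study's methods name a stranded library kit, but whether the counting used strand is not given in the sources used here. ACTA2-AS1 had at most 5 counts in any library. The actins are nearly identical in their coding sequence, so counts of ACTA2 and ACTG2 depend on how reads shared with other actins were treated.

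TAGLN (ENSG00000149591, chromosome 11, 117199370 to 117207464, plus strand) encodes transgelin, a small actin-binding protein that is among the earliest markers of smooth muscle. It was at 29.0 and 29.1 CPM in shControl and at 11.3 and 10.8 CPM in shYEATS2. The groups were far apart against the difference between replicates. The log2 fold change was -1.39 ± 0.10 (SE, adjusted p = 9.2e-19), leaving 38.1% of the control level, which placed TAGLN at rank 404 by size of fall among the tested genes. The fits without 1 library gave -1.44 to -1.37. On its own strand AP000892.4, with at most 9 counts in any library, covers 38.1% of its exon bases. PCSK7, on the other strand, overlaps 34.1% of the exon bases of TAGLN and had a log2 fold change of -0.36, with 2732 and 2236 counts in shControl and 1229 and 520 in shYEATS2.

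CALD1 (ENSG00000122786, chromosome 7, 134744252 to 134970729, plus strand), which encodes caldesmon, an inhibitor of the actin-activated myosin ATPase, was the most abundant member by counts. It was at 413 and 422 CPM in shControl and at 252 and 276 CPM in shYEATS2, a log2 fold change of -0.66 ± 0.06 (SE, adjusted p = 4.4e-15). Caldesmon mRNA was thus at 63.2% of the control level. The genes whose centred profiles lay closest to that of CALD1 were PTPRB (0.0180), TMEM161B-AS1 (0.0215) and ISOC1 (0.0238). CNN1 (ENSG00000130176, chromosome 19, 11538767 to 11550323, plus strand), which encodes calponin 1, a late marker of the contractile state, was counted 4 times in shControl replicate 2 and 0 times in the other libraries. At this depth no difference could be detected, since 3 counts correspond to between 0.0661 and 0.255 CPM depending on the library.

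The tropomyosin genes parted. TPM1 (ENSG00000140416, chromosome 15, 63042620 to 63071915, plus strand) was at 239.1 and 238.8 CPM in shControl and at 180 and 173 CPM in shYEATS2, with no overlap. Its log2 fold change was -0.44 ± 0.06 (SE, adjusted p = 7.5e-09). TPM2 (ENSG00000198467, chromosome 9, 35681992 to 35690056, minus strand), which encodes β-tropomyosin, was at 5.09 and 5.19 CPM in shControl and at 5.72 and 5.09 CPM in shYEATS2, and its groups overlapped. The log2 fold change of TPM2 was 0.09 ± 0.16 (SE) with a 95% interval from -0.24 to 0.42 (adjusted p = 0.677). The interval of TPM1, -0.56 to -0.32, did not reach that of TPM2, although the difference between the genes was not tested. Antisense genes overlap 22.7% of the exon bases of TPM1, of which TPM1-AS had 24 and 19 counts in shControl and 6 and 5 in shYEATS2.

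MYL9 (ENSG00000101335, chromosome 20, 36541497 to 36551447, plus strand), the regulatory light chain of smooth muscle and non-muscle myosin, was at 188 and 174 CPM in shControl and at 121 and 117 CPM in shYEATS2. Its groups did not overlap, and the log2 fold change was -0.60 ± 0.06 (SE, adjusted p = 9.3e-13). MYLK (ENSG00000065534, chromosome 3, 123610049 to 123884332, minus strand), the kinase that phosphorylates this light chain, was at 154 and 153 CPM in shControl and at 124 and 122 CPM in shYEATS2. Its libraries agreed closely within each group, and the groups were separate. The change of MYLK was the smallest among the members called lower, with a log2 fold change of -0.32 ± 0.06 (SE, adjusted p = 1.8e-05), or 80.3% of the control level. Scaled by library totals alone it was -0.18 with an adjusted p of 0.011 by edgeR. The antisense gene MYLK-AS1, which shares exon bases with MYLK, was higher in shYEATS2, with 112 and 77 counts in shControl against 101 and 44 in the less deeply sequenced shYEATS2 libraries, a log2 fold change of 0.78 ± 0.22 (SE, adjusted p = 0.0023 by edgeR).

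**Figure D2:**
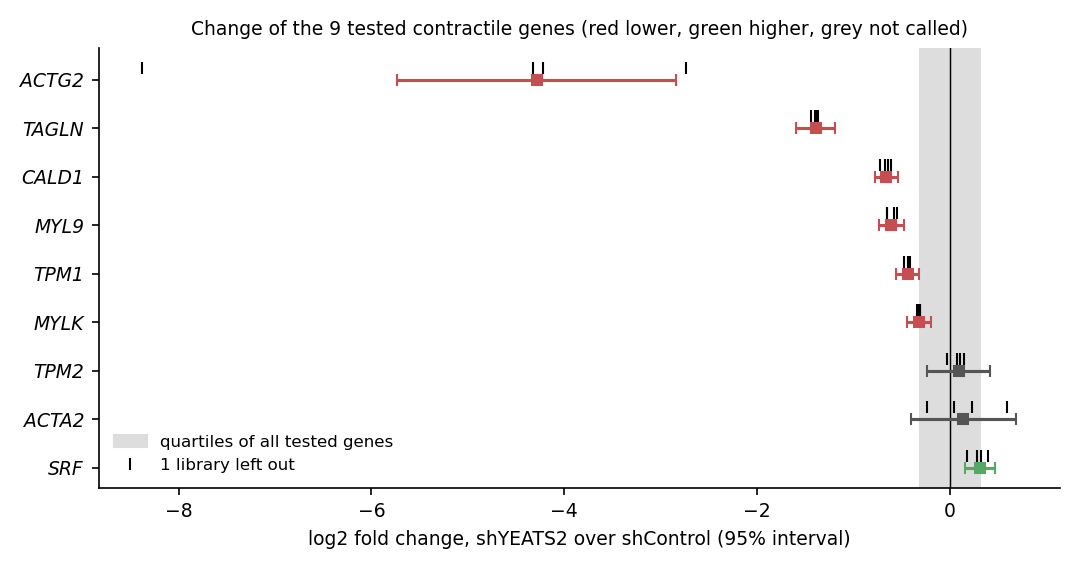
Log2 fold change of the 9 tested contractile genes, shYEATS2 over shControl, on the horizontal axis. Squares are the fitted values with 95% intervals, black ticks the fits with 1 library left out, and the grey band spans the quartiles of all tested genes (-0.31 to 0.32). The fits for ACTG2 spread from -8.38 to -2.74, those of ACTA2 and TPM2 fall on both sides of 0, and those of TAGLN, CALD1, MYL9, TPM1 and MYLK stay below 0.

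Levels were compared between members per kilobase of exon. In shControl MYL9 was highest at 64.5 ± 3.31 CPM per kb (SD, n = 2), followed by CALD1 at 42.6 ± 0.633, TPM1 at 16.3 ± 0.0136, SRF at 9.19 ± 0.195, MYLK at 4.87 ± 0.0187 and TAGLN at 4.44 ± 0.0181 CPM per kb. TPM2, ACTA2 and ACTG2 followed at 1.62 ± 0.0209, 0.346 ± 0.0310 and 0.301 ± 0.0164 CPM per kb. The ranges of neighbours in this order did not overlap in shControl. In shYEATS2, MYL9 at 42.3 ± 1.19 CPM per kb and CALD1 at 27.0 ± 1.73 CPM per kb again came first. TPM1 at 12.0 ± 0.313 CPM per kb and SRF at 11.3 ± 1.13 CPM per kb could no longer be ordered, as their ranges overlapped, and the same held for TPM2 at 1.70 ± 0.141 and TAGLN at 1.68 ± 0.0512 CPM per kb. The order depends on the length taken. Per kilobase of the longest transcript CALD1 came first in both conditions, at 83.3 CPM per kb in shControl and 52.8 CPM per kb in shYEATS2.

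Next, each member was set beside the other genes of its family, whose products do similar work in most cells. ACTB and ACTG1, the cytoplasmic actins, held nearly all of the actin counts per exon length. ACTA2 and ACTG2 together made up 0.0489% and 0.0448% of the 6 actins in shControl and 0.0255% and 0.0541% in shYEATS2 (exact permutation test, two-sided, p = 1), so the replicates of shYEATS2 differed by more than the conditions. Within the cytoplasmic pair, ACTB went from 87.1% and 87.0% in shControl to 70.8% and 70.6% in shYEATS2, and ACTG1 from 12.8% and 12.9% to 29.2% and 29.3%. TAGLN was 1.66% and 1.71% of the transgelins in shControl and 0.882% and 0.897% in shYEATS2, with TAGLN2 as nearly all of the remainder. MYL9 was 18.5% and 17.3% of the 3 non-sarcomeric regulatory light chains in shControl and 14.4% and 13.5% in shYEATS2. TPM1 and TPM2 together made up 8.39% and 8.25% of the 4 tropomyosins in shControl and 7.98% and 7.35% in shYEATS2, where TPM4 was the main gene. For this last share the exact permutation test gave p = 0.333, the smallest it can give with 2 libraries against 2. These shares depend on the exon lengths used and on reads that near-identical copies share, ACTB and ACTG1 or MYL12A and MYL12B among them.

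**Figure D3:**
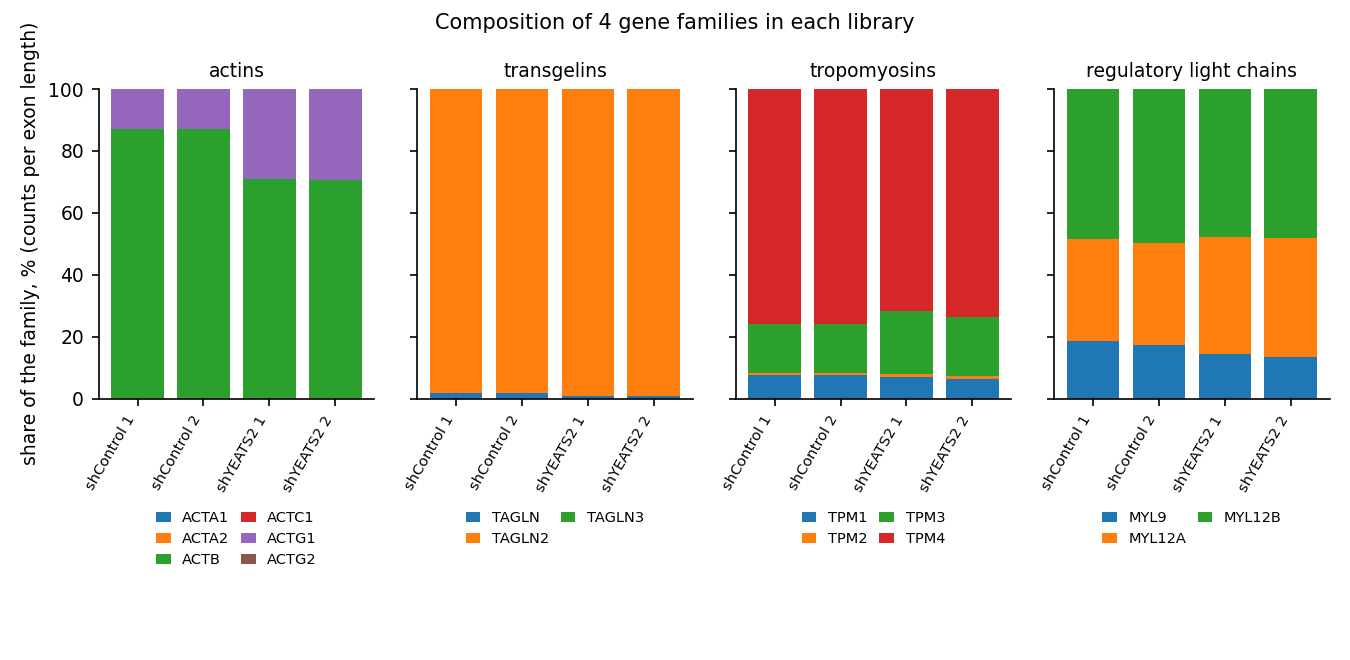
Composition of 4 gene families in each library, as the percentage of the family's counts per exon length on the vertical axis, with 1 stacked bar per library. TAGLN, TPM1, TPM2, ACTA2 and ACTG2 are thin or invisible parts of their families in every library, and ACTG1 takes 29.2% and 29.3% of the actins in shYEATS2 against 12.8% and 12.9% in shControl.

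Other genes of the SRF pathway were taken from lists of known function. The counts of each list are to be read beside the 23.6% lower and 22.6% higher among all tested genes. Of 6 SRF cofactors 5 were tested, 1 was lower, 2 were higher and 2 were not called. MRTFB had 58.5 ± 0.274 CPM (SD, n = 2) in shControl against 39.5 ± 0.620 CPM after knockdown, a log2 fold change of -0.57 ± 0.08 (SE, adjusted p = 2.8e-09 by edgeR). MRTFA, its close relative, had 42.6 ± 2.37 CPM in shControl against 42.8 ± 0.705 CPM after knockdown, a log2 fold change of 0.00 ± 0.08 (SE). Among the ETS-family cofactors, which compete with the MRTF proteins for SRF, ELK3 rose by a log2 fold change of 0.50 and ELK4 by 0.36. MYOCD, the cofactor of muscle, had at most 1 count in any library.

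Of 17 cytoskeletal and matricellular targets of MRTF and SRF, 7 were lower, 5 were higher and 5 were not called, with a median log2 fold change of -0.06. ACTB fell from 5306 ± 199 CPM (SD, n = 2) to 3445 ± 216 CPM, a log2 fold change of -0.62, and the focal adhesion genes TGFB1I1 and TRIP6 fell with log2 fold changes of -0.41 and -0.37. The genes with the largest rises, CCN2, ANKRD1 and CCN1, are also known targets of the YAP and TEAD factors. CCN2, which encodes connective tissue growth factor, rose from 35.6 ± 0.909 CPM to 182 ± 12.9 CPM, a log2 fold change of 2.36, and ANKRD1 and CCN1 rose by 1.07 and 1.01. Of 7 immediate-early targets of SRF, 0 were lower and 3 were higher by edgeR's quasi-likelihood test, each of them below 10 CPM, with a median of 0.17 over the list.

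Of 13 further genes of smooth muscle identity 7 were tested, 1 was lower and 2 were higher, with a median log2 fold change of 0.40. That median is the value of SYNPO2, which was not called and was at 0.825 CPM in shControl. MYH11 (0.42) and SMOC1 (0.48) were also not called, at 0.456 and 0.355 CPM in shControl. SYNM, which encodes the intermediate filament protein synemin, was the gene that fell (-0.67). SMTN, encoding smoothelin, and CNN2, encoding the widely expressed calponin 2, rose by 0.53 and 0.32, the latter by 0.19 without shYEATS2 replicate 1. Of 23 genes for the myosin motor and its control 20 were tested, 5 were lower and 6 were higher, with a median of -0.04. These counts lie near the shares over all tested genes, 23.6% lower and 22.6% higher. MYH9, the main non-muscle myosin heavy chain, fell from 1484 ± 14.8 CPM to 1207 ± 51.3 CPM, and PPP1R14B, an inhibitor of the myosin phosphatase, fell with a log2 fold change of -0.42. CIT and ROCK2, kinases that act on the light chain or its phosphatase, rose by 0.59 and 0.52, and CALM2, which encodes calmodulin, rose by 0.43. Of 15 paralogs of the members 12 were tested, 5 were lower and 2 were higher. They included TAGLN2 (-0.47), TPM4 (-0.33) and ACTG1 (0.86), the last of which rose from 721 ± 31.8 CPM to 1310 ± 75.2 CPM. Some genes, such as ACTB, stand in more than 1 list.

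**Figure D4:**
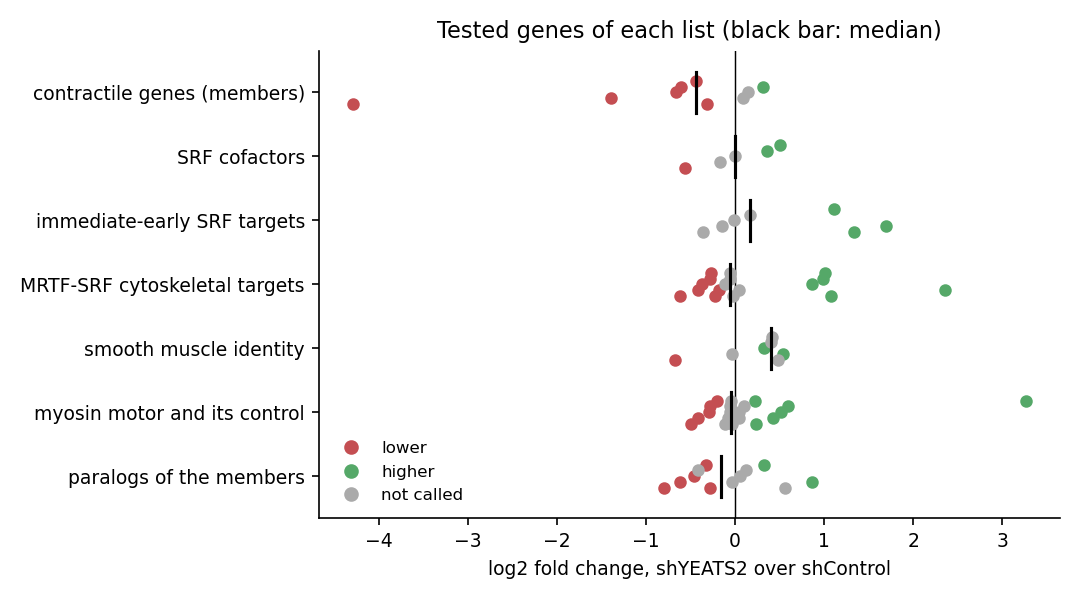
Log2 fold change of each tested gene, shYEATS2 over shControl, by list of the SRF pathway. Each point is 1 gene, coloured where called by edgeR, and the bars mark the medians. These are -0.44 for the members, -0.06 for the cytoskeletal targets and 0.40 for the genes of smooth muscle identity. The last is the value of SYNPO2, a gene with few counts that was not called.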

How the data were processed

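Poly(A) RNA of BICR10 cells was sequenced by the authors, who per the labels and methods aligned reads with STAR to GRCh38 and deposited raw counts per gene from HTSeq. The methods name a stranded mRNA library kit. The annotation release and the strand setting of the counting are not given in the sources used here. Rows that name no gene were left out (15.3% to 16.5% of counts).

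The deposited counts of 2 shControl and 2 shYEATS2 libraries were fitted with edgeR 4.0.16 (R 4.3.3; TMM, filterByExpr, robust quasi-likelihood test), and p was adjusted by Benjamini-Hochberg over 17058 genes, and the script was tested on simulated data. Replicates differed beyond sampling noise, and the common biological coefficient of variation was 4.95%. Intervals from counts and the floor of 3 counts cover counting error only. CPM and log2 CPM (prior count 2) were computed from the counts, and lengths were taken from GENCODE. Alternatives were other scalings and filters, DESeq2 1.42.0, limma 3.58.1, a likelihood ratio test, a replicate block, thinning and leaving out each library.

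The members and lists were chosen with earlier results of these data known. Named were all members and YEATS2, MRTFA and MRTFB, up to 3 rises and 3 falls per list among those called that averaged 10 CPM or more with no overlap between groups, marker lists by their sums, and the 3 genes nearest to SRF and to the most abundant member. An item that this rule would name is not reported here. Marker genes named singly were chosen after their values were seen.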

Additional observations from a re-analysis of the deposited data

How the results depend on the processing

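No result reversed among those called. Among the members and the list genes named by rule, 2 lost their call under an alternative. SRF did so without shYEATS2 replicate 1 (0.18, adjusted p = 0.0765 by edgeR) and TGFB1I1 did so when the libraries were thinned to the smallest total (-0.31, adjusted p = 0.245 by edgeR). Of the other list and marker genes, EGR3, PPP1R12B, MYLK4, TEK and EPCAM were called by edgeR and not by DESeq2 (adjusted p from 0.140 to 0.229). In fits that left 1 library in a group, it was assumed to vary like the other group. Leaving out 1 library gave 0 to 1 members higher and a median log2 fold change of the tested members from -0.47 to -0.41. That median was -0.30 with library totals alone, -0.57 with no filter, where CNN1 entered, and -0.38 with at least 10 counts in every library, where ACTG2 dropped out. Library totals alone moved the median of all genes from -0.01 to 0.13, with 2571 genes lower and 5441 higher in place of 4019 and 3857. The difference in the share of TPM1 and TPM2 was -0.978 points with the length of the longest transcript and -0.657 points with exon length. The latter was between -0.968 points without shYEATS2 replicate 1 and -0.345 points without shYEATS2 replicate 2. The difference in the share of ACTA2 and ACTG2 was -0.00703 points. Of the fits with 1 library left out, only that without shYEATS2 replicate 1 changed its sign (0.00724 points). Without shYEATS2 replicate 2 it was -0.0213 points. Replicate numbers did not pair the libraries (correlation of deviations -0.0184). With the replicate block 5 immediate-early genes were called in place of 3. The cause of these changes was not tested beyond the genes named as entering or dropping out. The smaller shYEATS2 library limits what can be said of ACTA2, ACTG2 and CNN1.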

Other observations

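Some genes outside the rule for naming, chosen after their values were seen, are given by their values. MYH14, a non-muscle myosin heavy chain typical of epithelia, was at 0.243 and 0.238 CPM in shControl and at 1.97 and 2.88 CPM in shYEATS2, a log2 fold change of 3.27 (adjusted p = 5.1e-10 by edgeR). CDH1 was at 0.353 and 0.318 CPM in shControl and at 2.84 and 2.12 CPM in shYEATS2. ABCC9, a potassium channel subunit used as a pericyte marker, was at 4.34 and 3.76 CPM against 9.79 and 12.0 CPM, and NOTCH3, the most abundant gene of the smooth muscle and pericyte list, was at 200.2 and 214 CPM against 319.5 and 268 CPM. The groups did not overlap for any of these 4 genes. Of the immediate-early genes, FOSB was at 2.51 and 2.06 CPM against 5.13 and 6.79 CPM, and EGR3, called by edgeR, was not called by DESeq2 (adjusted p = 0.151).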
